A study of Mus musculus with 9 samples.

Results

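The genes described here are the matrix metalloproteinases (MMPs), the tissue inhibitors of metalloproteinases (TIMPs), the membrane-bound ADAM proteases and the secreted ADAMTS proteases of the mouse lung, read on expression arrays after LPS or high-pressure ventilation. Every probe whose gene symbol in the array's annotation begins with Mmp, Timp or Adam followed by a number, or with Adamts, was taken. That gave 47 of the 10012 probes, for 46 genes, with 15 probes for MMPs, 4 for TIMPs, 22 for ADAMs and 6 for ADAMTS genes. This rule itself used no measured value, though the members were chosen with earlier results of these data known. The 9 arrays hold lung tissue RNA of 3 groups of 3 samples. One group was injected with E. coli lipopolysaccharide (LPS, a component of the bacterial outer membrane, given in the labels as O127:BO serotype) at 3 mg/kg, another was put on a ventilator for 3 h at a pressure of 25 cmH2O (labelled overventilation), and the third is labelled control. The labels give no strain, sex or age, no time after the LPS injection, no handling of the controls, and no word on whether the samples of a group are separate animals. The p-values thus rest on the variation among these samples alone, and that variation may be technical.

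MMPs are zinc enzymes that cut collagens, elastin and other matrix proteins, and they are made as inactive precursors that other proteases such as plasmin can activate. TIMPs bind the active site of MMPs, and TIMP3, which stays bound to the matrix, also blocks several ADAM and ADAMTS enzymes. ADAMs mostly act at the cell surface, where ADAM10 and ADAM17 release growth factors, cytokine receptors and adhesion molecules, while ADAMTS enzymes cut proteoglycans and procollagens outside the cell. In injured lung these enzymes are known for matrix remodelling, leukocyte passage and shedding of epithelial and endothelial surface proteins.

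Of the 46 genes, 25 had a promoter sequence in the RefSeq table (GRCm38.p6), with 30 promoters in all. The last 120 bases before each annotated start were searched on both strands for TGAGTCA (letters of an AP-1 site), for TATAAA (letters of a TATA box) and for GGGCGG (letters of an SP1 site). TGAGTCA stood in 6 of the 30 promoters, against 2.3% of all 32851 promoters in the table. These 6 belong to Mmp3, Mmp7, Mmp10, Mmp12, Mmp13 and Mmp1a, which are the 6 member genes within a run of 10 neighbouring Mmp genes on chromosome 9. The order of that run is Mmp13, Mmp12, Mmp1b, Mmp3, Mmp1a, Mmp10, Mmp8, Mmp27, Mmp20 and Mmp7. Genes of 1 run are related by descent, so these promoters are not independent. TATAAA stood in 7 of the 30 member promoters against 6.34% of all, and GGGCGG in 12 of 30 against 26.5%. The sequences below are those of 5 of the 6 chromosome 9 genes. Mmp7 and Mmp12 have 2 annotated starts each. For Mmp7 only the first is printed, and Mmp12 is described and not printed. These sequences are shown because the AP-1 letters recur in them and because Mmp3 was off the array floor on all overventilated arrays. They are followed by those of Mmp11 and Timp3, the members with the smallest p-values. They run 5′ to 3′ with the matches to these motifs, on either strand, in capitals, and no matches overlap.
Mmp3 (chr9:7445702-7445821, plus strand): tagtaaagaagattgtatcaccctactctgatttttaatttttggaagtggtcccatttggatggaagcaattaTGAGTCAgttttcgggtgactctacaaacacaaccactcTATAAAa
Mmp10 (chr9:7502222-7502341, plus strand): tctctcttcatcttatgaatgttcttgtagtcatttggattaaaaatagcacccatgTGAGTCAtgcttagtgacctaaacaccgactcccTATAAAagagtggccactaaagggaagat
Mmp13 (chr9:7272394-7272513, plus strand): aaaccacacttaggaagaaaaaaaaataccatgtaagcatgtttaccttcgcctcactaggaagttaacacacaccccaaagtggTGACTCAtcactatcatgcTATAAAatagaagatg
Mmp1a (chr9:7464021-7464140, plus strand): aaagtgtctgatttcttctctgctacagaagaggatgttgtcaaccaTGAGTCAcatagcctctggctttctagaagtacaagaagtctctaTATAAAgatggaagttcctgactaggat
Mmp7 (chr9:7691970-7692089, plus strand): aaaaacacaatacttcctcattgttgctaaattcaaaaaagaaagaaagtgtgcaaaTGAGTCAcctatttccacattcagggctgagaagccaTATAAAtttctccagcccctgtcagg
Mmp11 (chr10:75932503-75932622, minus strand): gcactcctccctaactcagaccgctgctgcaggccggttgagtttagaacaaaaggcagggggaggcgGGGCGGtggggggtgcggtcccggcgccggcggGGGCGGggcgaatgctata
Timp3 (chr10:86300292-86300411, plus strand): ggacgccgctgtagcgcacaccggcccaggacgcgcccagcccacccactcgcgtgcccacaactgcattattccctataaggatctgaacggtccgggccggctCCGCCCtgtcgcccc
In Mmp3 the AP-1 letters begin 46 bases before the annotated start, in Mmp10 and Mmp7 63, in Mmp13 35 and in Mmp1a 73. Mmp7 carries them before the first of its annotated starts, while the window before the other holds none of these motifs. Mmp12 carries the AP-1 letters before the second of its annotated starts (44 bases) and not before the other. Mmp11 and Timp3 hold GGGCGG or its reverse complement and neither of the other motifs in this window. A match is a run of letters and not a measured binding site.

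Each probe was deposited as a ratio to its own mean over the controls. The ratios are given here on the log2 scale with that mean at 0, and they hold no level of one gene against another. Each array has a floor, below which signals were set to a fixed value (the array's value in the most frequent row of the table, which occurs 1908 times). A probe was taken to be at the floor where 2 or more of its arrays followed that pattern. A shift common to all arrays of the probe was allowed, because each probe is scaled to its own control mean. Without a shift, 12 member probes held the pattern's own values on all 9 arrays and 19 on 1 or more. By this, 12 of the 47 probes lay at the floor on all 9 arrays, 18 on 2 to 8 arrays, and 17 on fewer than 2, so that no floor could be seen. Thus 63.8% of the member probes touched the floor on at least 2 arrays, against 46.8% of all probes. At the 12 probes nothing can be said of a change, since a signal under the floor is not shown. They are Mmp1a, Mmp9, Mmp16, Mmp19, Mmp24, Adam2, Adam5, Adam9, Adam23, Adam24, Adam33 and Adamts5. Per array between 19 and 27 member probes were at the floor. The floor was lowest on control array 1 (a ratio of 0.709) and highest on overventilation array 3 (2.222).

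**Figure D1:**
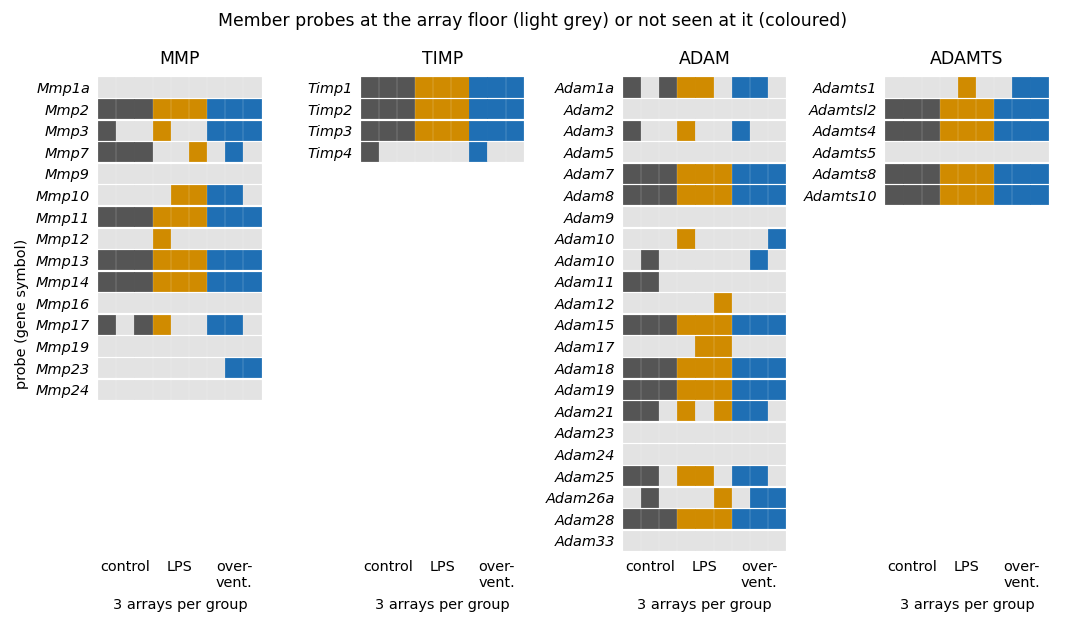
Each row is 1 of the 47 member probes, by family, and each column 1 of the 9 arrays (3 control, 3 LPS, 3 overventilation, in replicate order). Light grey marks an array at its floor and colour an array not seen at it; a floor on a single array of a probe cannot be recognised. Among the MMPs only 4 of 15 probes are coloured throughout, and 3 of the 4 TIMPs are.

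To compare groups, probes with a visible floor had their values lifted to that of overventilation array 3, and a probe was tested if it stood above it on 3 or more arrays or showed no floor. That left 5710 probes, 19 of them members: 5 MMPs, 3 TIMPs, 7 ADAMs and 4 ADAMTS genes. Some arrays stand apart over the whole table. Overventilation array 3 held 110 lone high values (over 1.5 above the next array on the log2 scale), against at most 6 on another array, LPS array 2 held 291 lone low values, and at 139 probes overventilation arrays 1 and 3 lay over 1.5 below all the others. None of the 19 tested members belongs to any of these sets. Control array 3 stood apart in markers of skeletal muscle. Of 4 such probes, none of which passed the filter, Acta1, Tnnt3 and Mylpf stood at 3.34, 0.63 and 3.80 there, and at the common floor on the 8 other arrays except for Acta1 on overventilation array 3 (-1.06). The fourth, Ckm, was at the floor on all 9. Mylpf lay at an array's own floor on only 2 arrays, and its other low values were lifted to the common floor. Without control replicate 3 the log2 differences from control after overventilation and LPS were -2.28 and -0.94 for Mmp11 and 1.80 and 0.97 for Timp3, the members with the smallest p-values, whose values with it are given below. The surfactant and other alveolar type II probes that mark lung tissue (7 of 7) were all without a visible floor.

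Mmp11 lay lower after both treatments, and lower after overventilation than after LPS. Mmp11 encodes stromelysin-3, an MMP of stromal cells that is activated inside the cell by furin. It stood at 0.14, -0.30 and 0.15 on the 3 control arrays, at -0.89, -0.81 and -1.35 after LPS, and at -2.36, -2.25 and -2.45 after overventilation. The 3 groups do not overlap, and the order control, LPS, overventilation holds on every array. Such an order from high to low without overlap was found at 20 of the 5710 tested probes (0.35%), and Mmp11 was the only member among them. The overventilated mean was -2.35 ± 0.10 (SD, n = 3) and the control mean 0 ± 0.26, a 5.11-fold difference with a 95% confidence interval of -3.02 to -1.69 on the log2 scale. Its limma p was the smallest of all 5710 probes and did not pass after Benjamini-Hochberg adjustment (adjusted p = 0.0828). After LPS the mean was -1.02 ± 0.29 (SD, n = 3), a 2.02-fold difference from control with an interval of -1.68 to -0.35 (limma, adjusted p = 1). Between overventilation and LPS the log2 difference was -1.34, with an interval of -2.00 to -0.67 (limma, adjusted p = 0.494), and with quantile normalization it was -0.74. Without overventilation replicate 2 the adjusted p against control was 0.00523, within a range of 0.00523 to 0.593 over 19 alternatives. In bulk tissue, fewer cells of a type and less RNA per cell cannot be told apart. Fibroblast and smooth muscle markers (7 tested of 11 probes, none at the floor on all arrays) had array medians of -0.31 to 0.29 in controls, -0.48 to -0.04 after LPS and -0.83 to 0.05 after overventilation. On overventilation arrays 1 to 3 they were -0.83, 0.05 and -0.79. Adipose markers (3 tested of 3 probes) had medians of 0.75, 0.93 and -1.70 on control arrays 1 to 3. Their medians were -2.12, -5.28 and -1.93 on LPS arrays 1 to 3 and -2.21 to -0.36 after overventilation. LPS array 2 is the array of the 291 lone low values, among them Adipoq (-5.28) and Fabp4 (-6.07). The part of either cell type in the Mmp11 differences was not tested.

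Mmp3 was above the floor on all 3 overventilated arrays and on 1 array of each other group. Mmp3 encodes stromelysin-1, which cuts many matrix proteins and activates other MMPs. Its signal is best given over the highest array floor, on the log2 scale, where a value at an array's own floor is an upper bound. It was 1.04, -0.14 and 2.35 after overventilation. In controls it was -0.56 on array 1 and at most -1.05 and -0.75 on arrays 2 and 3, and after LPS -0.55 on array 1 and at most -1.18 and -1.17 on the others. Every overventilated sample thus lay above every control and every LPS sample, whatever the true signal under the floor. With floor values taken as they stand, the overventilated mean was at least 3.67-fold above the control mean and at least 4.14-fold above the LPS mean. Of the 2782 probes with 2 to 8 arrays at the floor, 1.55% were higher after overventilation than in controls by this rule and 1.47% higher than after LPS, and among the 18 such members Mmp3 alone was, in each comparison. Mmp3 was not among the 5710 tested probes, because only 2 of its arrays exceed the highest floor. With overventilation array 3 left out and the next highest floor used, it was tested with a log2 difference from control of 1.14 and a standard error of 0.38 (limma, adjusted p = 0.571).

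For the other members of the chromosome 9 run no group was clear of the rest. Mmp10, or stromelysin-2, was at the floor on all 3 control arrays and came off it on LPS arrays 2 and 3 and on overventilation arrays 1 and 2. Its values over the highest floor there were -0.55 and -1.13 after LPS and -0.69 and -1.04 after overventilation, against bounds of -1.65, -1.05 and -0.75 in the controls. The values on LPS array 2 and overventilation array 1 thus lay above all controls, and those on the other 2 arrays did not. Mmp7, matrilysin, an epithelial enzyme, was off the floor on 3 control arrays (-1.37, -0.56 and -0.42), on LPS array 3 (-0.65) and on overventilation array 2 (-0.79), so no group stood out. Mmp12, the macrophage elastase, was off the floor only on LPS array 1, at 0.22, and Mmp1a on no array. Mmp13, a collagenase, showed no floor and spread as widely within groups as between them, with -0.38, 1.06 and -0.69 in controls, -1.14, 1.54 and 0.28 after LPS and -1.01, 1.04 and -0.28 after overventilation. Within each group array 2 was the highest for Mmp13.

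**Figure D2:**
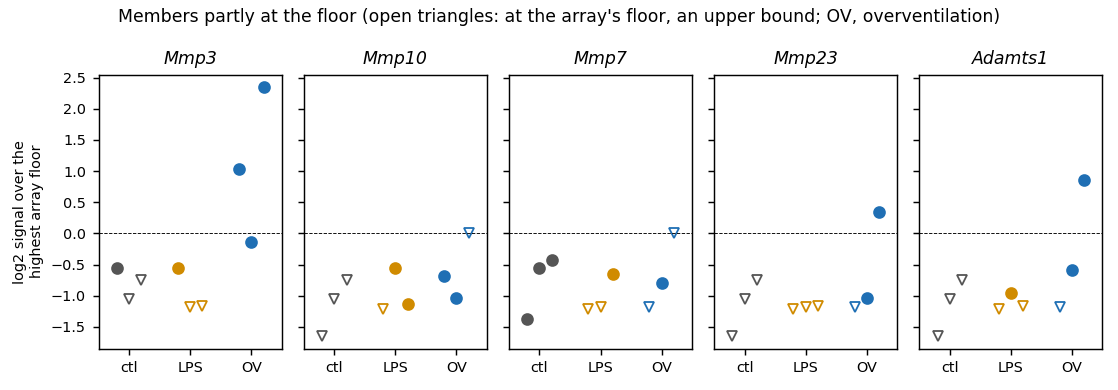
The log2 signal over the highest array floor (dashed line) is plotted for 5 members partly at the floor, with 1 symbol per array for control (ctl), LPS and overventilation (OV). Filled circles are measured and open triangles are upper bounds at an array's own floor; only for Mmp3 do the 3 overventilated values, from -0.14 to 2.35, clear all others.

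The remaining MMPs showed small differences from control or wide spread. Mmp14, the membrane-type enzyme that activates the precursor of MMP2, had a log2 difference from control of -0.19 after overventilation (95% confidence interval -0.92 to 0.54) and -0.11 after LPS (-0.84 to 0.61). Mmp2, gelatinase A, was nearly the same on the 3 control arrays (0.05, -0.02 and -0.03) and spread after overventilation (-0.74, -0.23 and 1.18). Its difference was 0.07 with an interval of -0.99 to 1.12, and without overventilation replicate 3 it was -0.49. Mmp17, a membrane-anchored enzyme, had 4 arrays at the floor and a difference of -0.12 after overventilation (-0.79 to 0.55). Mmp23 was off the floor only on overventilation arrays 2 and 3, at -1.03 and 0.35 over the highest floor, and the first of these is not clear of the control bounds. Mmp9, gelatinase B, which neutrophils store in granules, was at the floor throughout. No member probe was annotated to Mmp8, so it was not analysed here.

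Among the tissue inhibitors, Timp3 had higher means in the treated groups, while the probes of Timp1 and Timp2 overlapped between all groups. Timp3 stood at 1.12, -0.77 and -0.35 on the control arrays, at 1.27, 1.73 and 0.44 after LPS and at 2.03, 1.17 and 2.72 after overventilation. No overventilated sample overlapped with the controls, though the lowest of them was only just above control array 1, and after LPS 1 sample lay inside the control range. The mean after overventilation was 1.97 ± 0.78 (SD, n = 3) against 0 ± 0.99, a 3.92-fold difference with a 95% confidence interval of 0.67 to 3.27 on the log2 scale (limma, adjusted p = 0.213). After LPS it was 1.15 ± 0.65, with an interval of -0.16 to 2.45 (limma, adjusted p = 1), and overventilation differed from LPS by 0.82 (-0.48 to 2.13, adjusted p = 0.65). Without overventilation replicate 3 the Timp3 difference was 1.60, and leaving out single arrays gave 1.58 to 2.53. Timp1, an inhibitor of secreted MMPs that inflammatory signals are known to induce, had 0.56, 0.03 and -0.59 in controls, 0.49, 0.53 and 0.25 after LPS and 0.91, 0.44 and -0.27 after overventilation. Its differences from control were 0.36 (-0.55 to 1.26) for overventilation and 0.42 (-0.48 to 1.33) for LPS, and both intervals are too wide to show that it did not differ. Timp2, which also takes part in activating MMP2, ranged from -1.48 to 1.39 over the controls alone, and its difference of -1.04 after overventilation had an interval of -2.72 to 0.64. Timp4 was at the floor on 7 arrays and off it on control array 1 and overventilation array 1.

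**Figure D3:**
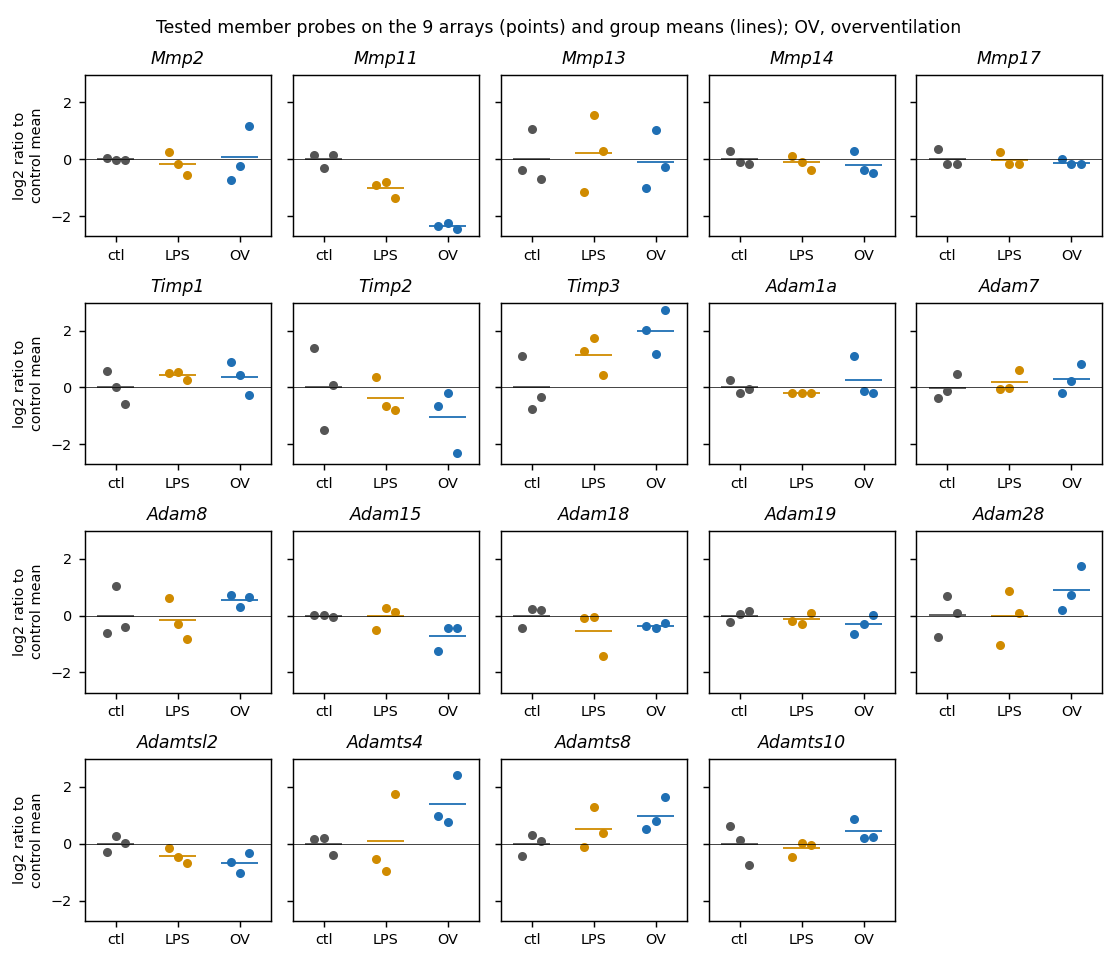
The log2 ratio to the control mean is plotted for the 19 tested member probes on each array, with control (ctl), LPS and overventilation (OV) side by side and a line at each group's mean. Mmp11 steps down from 0 to -1.02 and -2.35 with little spread, and Timp3 steps up to 1.15 and 1.97 with wider spread.

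The shedding enzymes of the ADAM family were largely out of reach of these arrays. Adam10 is read by 2 probes, each at the floor on 7 arrays. The 4 values off the floor lay on different arrays for the 2 probes (LPS array 1 and overventilation array 3 for the former, control array 2 and overventilation array 2 for the latter), so the probes did not give the same picture. Adam17, which releases TNF and ligands of the EGF receptor, was off the floor on LPS arrays 2 and 3 only, at -0.97 and -1.01 over the highest floor, within the bounds of the controls. Adam9 and Adam33 were at the floor on all arrays and Adam12 on 8. Adam15, a membrane protease of epithelium and endothelium, lay at 0.02, 0.02 and -0.04 in controls and at -1.23, -0.45 and -0.43 after overventilation, without overlap, and at -0.49, 0.28 and 0.12 after LPS. Its difference of -0.71 after overventilation had an interval of -1.47 to 0.06 (limma, adjusted p = 0.381). Adam8, a protease of leukocytes, stood at 0.74, 0.29 and 0.64 after overventilation against -0.62, 1.03 and -0.41 in controls, with 1 control above all 3. Adam28, expressed in lymphocytes and epithelium, reached 1.73 on overventilation array 3, and its difference of 0.89 (-0.42 to 2.19) was 0.46 without that array. Adam19 differed from control by -0.31 after overventilation (-0.99 to 0.37). Adam7 and Adam18, known from the male reproductive tract, had differences of 0.29 and -0.35, and Adam1a, mostly near the floor, one of 0.26. The 3 LPS values of Adam1a were all at the common floor.

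Of the ADAMTS genes, Adamts4 and Adamts8 lay higher and Adamtsl2 lower after overventilation than in any control, and none passed the test. Adamts4, an aggrecanase, had 0.18, 0.20 and -0.38 in controls, 0.98, 0.75 and 2.42 after overventilation and -0.54, -0.96 and 1.74 after LPS. Its difference of 1.38 after overventilation had an interval of -0.17 to 2.93 (limma, adjusted p = 0.397) and was 0.86 without overventilation replicate 3. Adamts8, a gene known for high expression in lung, had -0.42, 0.31 and 0.11 in controls, -0.13, 1.29 and 0.37 after LPS and 0.53, 0.79 and 1.65 after overventilation. Its difference of 0.99 had an interval of -0.02 to 2.00 (limma, adjusted p = 0.346) and was 0.66 without overventilation replicate 3. For Timp3, Adamts4, Adamts8, Adam28, Adam7, Mmp2 and Mmp3 the highest of the 9 values was on overventilation array 3, the array of the 110 lone high values. Over the highest floor, Adamts1 (0.86), Mmp23 (0.35), an Adam10 probe (0.24) and Adam26a (0.09) were highest on that array too. Without that array the Adam7 difference was 0.02, and those of the other tested genes are given above. Adamtsl2, a secreted relative of the ADAMTS proteases without a protease domain, had -0.29, 0.28 and 0.01 in controls and -0.65, -1.02 and -0.32 after overventilation. Its difference of -0.66 had an interval of -1.38 to 0.05 (limma, adjusted p = 0.379), and after LPS it was -0.44 (-1.16 to 0.28). Adamts10, which acts in microfibril assembly, overlapped with control, but all 3 overventilated values (0.86, 0.21 and 0.23) were above all 3 LPS values (-0.46, 0.02 and -0.04). Adamts1, a protease of versican and aggrecan, was at the floor in all controls and off it on overventilation arrays 2 and 3 (-0.58 and 0.86 over the highest floor) and on LPS array 2 (-0.95).

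**Figure D4:**
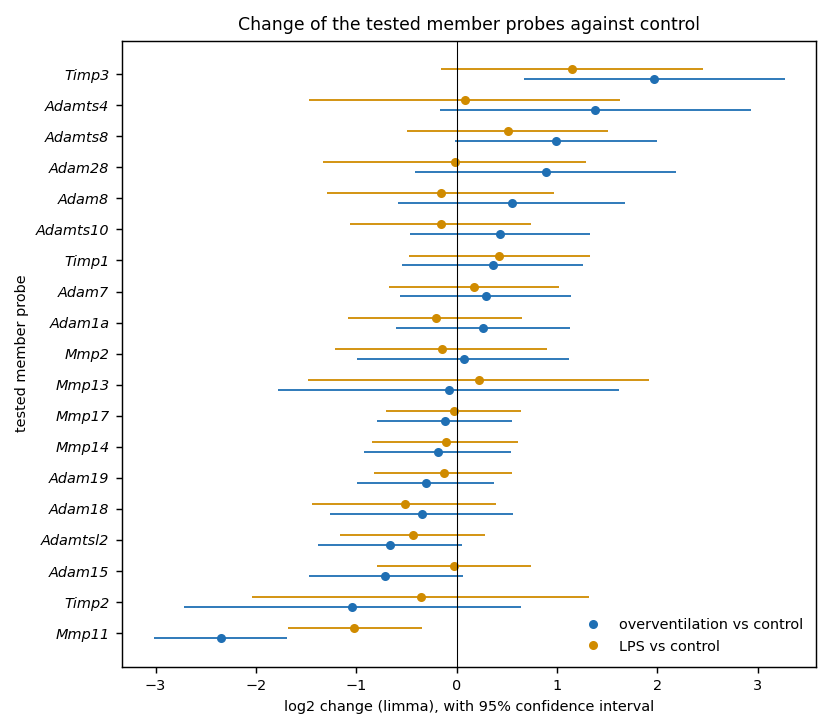
Dots give the limma log2 difference from control of the 19 tested member probes and lines the 95% confidence interval, for overventilation and LPS, ordered by the former. After overventilation the intervals of Mmp11 (-3.02 to -1.69) and Timp3 (0.67 to 3.27) exclude 0, and after LPS that of Mmp11 (-1.68 to -0.35) does.

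At an adjusted p under 0.05, limma called 0 of the 19 members and 0 of the 5710 probes (0%) in each of the 3 comparisons. At an unadjusted p under 0.05 it called 2 of 19 members for overventilation against control, Timp3 higher and Mmp11 lower, where 14.9% of all tested probes were called. For LPS against control it was 1 of 19 against 2.07%, or against 5.5% with the replicate number as a block, and for overventilation against LPS 1 of 19 against 9.51%, each time Mmp11. Over the 3 groups a moderated F test called 2 of 19, Mmp11 and Timp3, against 10.4%. The samples of overventilation and control did not overlap at 6 of the 19 members, against 19.6% of all probes, with Timp3, Adamts4 and Adamts8 higher (9.12% of all probes) and Mmp11, Adam15 and Adamtsl2 lower (10.5%). For LPS against control this was so at 1 of 19, against 6.32%, and for overventilation against LPS at 2 of 19, against 11.2%. The median log2 difference of the members was 0.07 after overventilation and -0.11 after LPS, against -0.01 and -0.05 over all tested probes. Both comparisons with control share the control arrays. By direction, the samples of LPS and control did not overlap at 0 of 19 members higher (2.24% of all probes) and Mmp11 lower (4.08%), and for overventilation against LPS Adamts10 higher (5.71%) and Mmp11 lower (5.46%), with unadjusted calls of 0 higher (3.57%) and Mmp11 lower (5.94%).

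Single arrays moved these counts. Without control replicate 2, overventilation against control gave 4 of 19 members (13% of all probes), with Adam8 and Timp2 added. Without control replicate 1 (2.35%) or LPS replicate 3 (2.1%), LPS against control gave 2, with Timp3 added. Overventilation against LPS gave 2 without LPS replicate 1 (Adam15 added, 9.35%), replicate 2 (Adam28 added, 9.44%) or replicate 3 (Adamts4 added, 6.94%). The share of all probes for overventilation against control was 8.46% without overventilation replicate 3 and 9.61% without control replicate 3. For LPS against control it was 8% without LPS replicate 1 and 0.981% without control replicate 3, and for overventilation against LPS 3.17% without overventilation replicate 3 and 14.4% without overventilation replicate 2. With the replicate number as a block, overventilation gave 4 of 19 against control (21% of all probes) and 3 of 19 against LPS (14.7%). Quantile normalization gave a share of all probes of 7.02% for overventilation against control, 1.65% for LPS against control and 3.8% for overventilation against LPS. Leaving out overventilation array 3 and using the next highest floor, 23 members were tested, and 5 of them were called for overventilation against control (8.31% of all probes) and 2 against LPS (3.24%), Mmp3 among both.

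The proteins that the family cuts or depends on were read from 4 lists of genes. Of 27 genes known to be shed by ADAM10 or ADAM17 or to act with them, 20 probes were on the array, 12 were tested and 3 were at the floor on all arrays (App, Dll1 and Tnf). At an unadjusted p under 0.05, 3 of the 12 were higher after overventilation and none lower, where 6.2% and 8.69% of all probes were, and none was called after LPS (0.998% and 1.07%). They were Vcam1, a leukocyte adhesion molecule of endothelium, Cdh1, the epithelial cadherin, and Ereg, a ligand of the EGF receptor. Vcam1 lay at 1.54, 2.27 and 3.45 after overventilation against -0.17, 0.77 and -0.60 in controls (log2 difference 2.42, adjusted p = 0.193) and at 0.16, 1.55 and 1.06 after LPS. Cdh1 had a difference of 2.40 (limma, adjusted p = 0.193), with a lone high value of 3.71 on overventilation array 3. Ereg had one of 1.83 (limma, adjusted p = 0.201), with 2.47, 1.98 and 1.03 on the 3 arrays. The median over the 12 was 0.84 after overventilation and 0.41 after LPS.

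Of 20 matrix proteins, 17 probes were present and 9 tested. At an unadjusted p under 0.05, 1 of the 9 was called higher after overventilation and 2 lower (6.2% and 8.69% of all probes), and none after LPS (0.998% and 1.07%). The log2 difference was 1.87 for Tnc, the matrix glycoprotein tenascin C, -1.03 for Dcn, the small proteoglycan decorin, and -1.34 for the laminin gene Lama2, with limma adjusted p-values of 0.193, 0.259 and 0.267. Dcn lay at -1.43, -0.33 and -1.34 on overventilation arrays 1 to 3 and Lama2 at -1.82, -0.14 and -2.06, so for both the second array lay within the control range. The list's median was 0.26 after overventilation and -0.05 after LPS. Another list holds the plasminogen system, whose product plasmin activates several MMP precursors, and with it F3, or tissue factor, which starts coagulation and is not itself part of that system. Of its 11 genes, 8 had a probe. Plau, Plat and Plg, which encode urokinase, the tissue activator and plasminogen, were at the floor on all 9 arrays, and 5 probes were tested. At an unadjusted p under 0.05, 2 of the 5 were called higher after overventilation and none lower (6.2% and 8.69% of all probes), and none after LPS. They were F3, with a log2 difference of 2.28 (limma, adjusted p = 0.201), and Anxa2, which encodes a cell-surface binding partner of plasminogen, with 1.68 (adjusted p = 0.213). The list's median was 1.68 after overventilation and 1.20 after LPS. Of 11 other inhibitors and activators, 9 probes were present, 2 were at the floor on all arrays (Reck, a membrane inhibitor of MMPs, and Spock1), and 4 were tested. At an unadjusted p under 0.05, 1 of the 4 was called higher after overventilation (6.2% of all probes) and after LPS (0.998%), the inhibitor gene Tfpi2. Its differences were 2.16 (limma, adjusted p = 0.201) and 1.46 (adjusted p = 1). Its control values were 0.84, 0.61 and -1.46, the last a lone low value, and LPS array 1 (0.88) lay close to the former. Furin, which activates MMP11 and MMP14, had differences of 0.38 after overventilation and 0.52 after LPS.

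The cells that bring metalloproteases into the lung were checked by their markers, since the tissue was not sorted. Neutrophil markers were measured by 10 probes for 14 genes, of which 4 were tested (S100a8, Ltf, Ngp and Csf3r). The defining granule genes Mpo and Elane were at the floor on 8 arrays each and Prtn3 on all 9. Array medians of the 4 ran from -0.61 to 0.51 in controls, from -0.88 to -0.24 after LPS and from -1.04 to -0.15 after overventilation, and Csf3r had the smallest p (log2 difference -0.92 after overventilation, adjusted p = 0.301). Macrophage and monocyte markers, with 11 probes and 7 tested, had array medians of -0.38 to 0.13 in controls, -0.63 to 0.88 after LPS and -0.20 to 0.01 after overventilation. The highest of these medians on an LPS array, 0.88, was on array 1, the only array where Mmp12 was off the floor. Single markers on that array ran from -0.29 (Cd14) to 3.66 (Chil3). Whether Mmp12 and these markers are linked was not tested. Endothelial markers (3 tested of 6 probes) had medians of -0.42 to 0.51 in controls, -0.84 to 0.37 after LPS and -0.01 to 0.74 after overventilation. Alveolar type I markers (4 tested of 4) had medians of -0.45 to 0.11 in controls, 0.25 to 1.00 after LPS and 0.45 to 3.06 after overventilation. These markers differed among themselves. Aqp5 stood at 2.33, 2.81 and 2.67 after LPS and at -1.24, -1.24 and 3.15 after overventilation, where -1.24 is the common floor. Pdpn stood at 0.71, -0.22 and 0.63 after overventilation. Timp3 and the type I medians were highest on overventilation array 3, the array of the 110 lone high values. Ager (4.48) and Cav1 (2.96) had lone high values on that array. Lone high values there were also seen for Sftpd of type II cells (4.12), Lyz2 of macrophages (4.77) and Acta2 of smooth muscle (2.99). The medians of those 3 lists on that array were 0.12, -0.20 and -0.79. The part of type I cells in the Timp3 difference was not tested. Alveolar type II medians lay between -0.60 and 0.45 over all 9 arrays and airway medians between -0.70 and 0.51. Within the type II list the 2 probes of Napsa disagreed. Their log2 differences from control after overventilation were -2.13 (limma, adjusted p = 0.193) and 0.48 (limma, adjusted p = 0.694). The 1 tested mesothelial probe lay between -0.52 and 0.87.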

How the data were processed

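The files hold ratios of 9 arrays (3 per group) in 1 table; judged from the values, the authors deposited a linear ratio of each signal to the geometric mean of the 3 control arrays (largest deviation of the control mean from 0 on the log2 scale, 2.5e-09). The array maker, dyes, scanner and scaling are not stated in any source at hand. Symbols came from the platform annotation (8983 probes with 1 symbol, 1 with several, 1028 with none), and all 47 member gene IDs are in the RefSeq table.

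From the deposited ratios, log2 values were computed. Where 2 or more arrays of a probe followed the floor pattern, up to a shift of the whole probe (tolerance 1e-06), that shift was removed. Values were then raised to the highest floor (1.15 on the log2 scale) and centred on the control mean again. Such fold changes are too small near the floor. limma 3.58.1 (R 4.3.3) fitted the group means (3 groups, 6 residual degrees of freedom, eBayes, two-sided, Benjamini-Hochberg over 5710 probes, threshold 0.05). The fit was run on simulated data with independent normal noise, without a floor, outlying arrays or correlated arrays. That run therefore does not show how the fit behaves with those traits of these arrays. The number of arrays limits the precision. Deviations of same-numbered arrays correlated at 0.497, 0.247 and 0.199 for LPS and control. Differently numbered arrays were not compared and the labels name no pairs, so pairing is not established. The main fit held no term for the replicate number, and its p-values and intervals are unpaired. A block on the replicate number was fitted as an alternative only.

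Named were all members with an unadjusted p under 0.05, members and pathway genes listed by name and up to 4 genes of each pathway list by p, together with further members and genes chosen after their values were seen. The members and lists were chosen with earlier results of these data known.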

Additional observations from a re-analysis of the deposited data

How the results depend on the processing

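None of the 41 single-probe changes tested passed the adjusted threshold in the main setting, and of their 775 values under 19 alternatives 735 kept direction and side, 1 passed (Mmp11, above) and 39 changed sign, all at changes that were small or widely spread. The numbers of member probes at an unadjusted p under 0.05 moved as follows. For overventilation against control the 2 became 4 with the replicate block (21% of all tested probes). It also became 4 with no filter, with array weights or with only the arrays compared. At a lower common floor without overventilation array 3 it became 5 (8.31%). That alternative was chosen after seeing the data and adds Mmp3 to those tested. For LPS against control the 1 became 2 with quantile normalization (1.65%) or array weights. For overventilation against LPS the 1 became 3 with the replicate block (14.7%) and 2 with array weights or the lower floor (3.24%). With quantile normalization (3.8%) it became 0. Over the 3 groups the 2 became 1 with no filter. Where no share is given here, that of all probes was not counted, so the move cannot be read as particular to the members. Leaving out single arrays gave 2 to 4, 1 to 2, 1 to 2 and 1 to 3 for these 4 counts, and 0 to 1 members at an adjusted p under 0.05 for overventilation against control (0 to 0 for the others). Same-numbered arrays correlated at 0.508, 0.133 and 0.033 for overventilation and control and at 0.496, 0.211 and 0.038 for overventilation and LPS. For replicate 1 these values were close to the 0.497 of LPS and control, and for replicates 2 and 3 they were lower than there. Whether arrays were paired in any comparison cannot be told from these values.

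After overventilation the sign turned for Mmp13 (0.19 with quantile normalization, 0.24 with array weights, 0.02 at the lower floor), Mmp2 (-0.02, -0.04 and -0.49 under the same settings) and Mmp17 (0.09 with no common floor, 0.02 with an offset). After LPS it turned for Adam28 (0.01 with median centring), Adamts10 (0.15 with quantile normalization, 0.18 with array weights), Adam15 (0.07 with array weights) and Mmp17 (0.06 with quantile normalization). Without single arrays the changes that turned ran from -0.64 to 0.45 for Mmp13, -0.49 to 0.47 for Mmp2, -0.21 to 0.06 for Mmp17 and -0.16 to 0.50 for Adam1a after overventilation. After LPS they ran from -0.75 to 0.60 for Adamts4, -0.46 to 0.48 for Adam28, -0.54 to 0.15 for Adamts10, -0.04 to 0.41 for Adam7, -0.56 to 0.35 for Adam8, -0.43 to 0.91 for Mmp13, -0.23 to 0.02 for Mmp14, -0.35 to 0.05 for Mmp2, -0.18 to 0.20 for Adam15, -1.10 to 0.33 for Timp2 and -0.18 to 0.15 for Mmp17. The cause of these turns was not tested. Signal over the floor limits what the arrays show, and the stricter filter gave no value for Mmp17 and Adam1a.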
